A study of Homo sapiens with 48 samples.

Results

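The comparison set day 7 embryoid bodies started in CEPT against embryoid bodies started in Y-27632. Its 32 libraries, 16 in each arm, were chosen by their sample labels out of the 48 libraries of the series. All came from the human embryonic stem cell line WA09 (H9), which is established and carried no genetic change. In both arms, single cells released with Accutase were aggregated at 20000 cells per well in E6 medium and kept there for 7 days. The arms differed in the compound present for the first 24 hours. The CEPT arm received the 4-part cocktail and the Y27 arm received Y-27632. The labels give no dose for either, and do not say whether a library was made from a single embryoid body or from separate differentiation runs, so the p-values measure the spread between libraries, which may be partly technical. The other 16 libraries, 4 each, were undifferentiated cells, ectoderm made with LDN193189 at 100 nM and A83-01 at 2 uM, and mesoderm and endoderm made with commercial kits.

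Dissociated human pluripotent stem cells tend to die, because loss of contact activates the kinase ROCK and contracts the actin cortex. Y-27632 inhibits ROCK. CEPT joins another ROCK inhibitor, chroman 1, to emricasan, which blocks caspases, to polyamines, and to trans-ISRIB, which keeps translation going when the integrated stress response is active. E6 medium lacks the growth factors that hold cells pluripotent, and aggregates kept in it tend towards neural and neural crest fates. Both compounds had been absent since the first day when RNA was collected, so the readout describes the state of the aggregates long after exposure. The question is which genes of the panel differed at that time.

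RNA was read by RASL-Seq, in which 2 DNA probes that meet on a transcript are ligated, amplified and counted. The panel held 1113 probe pairs for 452 genes, most genes having several. Reads of all probe pairs of a gene were summed. Libraries held 1814266 to 4794912 reads in the CEPT arm (median 3616925) and 379810 to 5577868 in the Y27 arm (median 3994396), the lowest being Y27 replicate 15. Where a library shows 0 reads of a gene, up to 3 could have been expected there, for counting error only. Levels below are CPM, counts per 1e6 reads of the library size after TMM scaling, computed over all 48 libraries where controls are given. The arms carried a neural character next to the controls. SST, a neuropeptide of inhibitory neurons, averaged 11342 ± 4249 CPM with CEPT and 7722 ± 2204 CPM with Y-27632 (SD, n = 16 each) and 0.896 ± 0.507 CPM in undifferentiated cells (SD, n = 4). NANOG, a pluripotency factor, was at 48.8 ± 37.7 and 36.2 ± 30.5 CPM in the arms (SD, n = 16 each) and at 2106 ± 246 in undifferentiated cells (SD, n = 4).

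After summing probes, 382 genes passed the count filter and 112 differed between the arms at an adjusted p under 0.05 (quasi-likelihood test of edgeR, Benjamini-Hochberg adjusted), which is 29.3% of the tested genes. The CEPT arm was higher for 54 genes (14.1%) and lower for 58 (15.2%). Increases had a median log2 fold change of 0.76 and decreases one of -0.36, against -0.02 over all tested genes. A change of 1 or more on the log2 scale was reached by 17 genes, 16 of them higher. The arms did not overlap for 1 gene, TNFSF9 (0.262% of the tested genes). The increases included secreted or surface proteins (GDF15, TNFSF9, TM4SF1), ANXA1, EPCAM, the homeobox factor OTX2 and a group of short, abundant transcripts. Among the decreases were chaperones, neural crest regulators, neurite genes and OLIG2. Bulk libraries cannot tell fewer cells of a type from less RNA per cell.

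**Figure D1:**
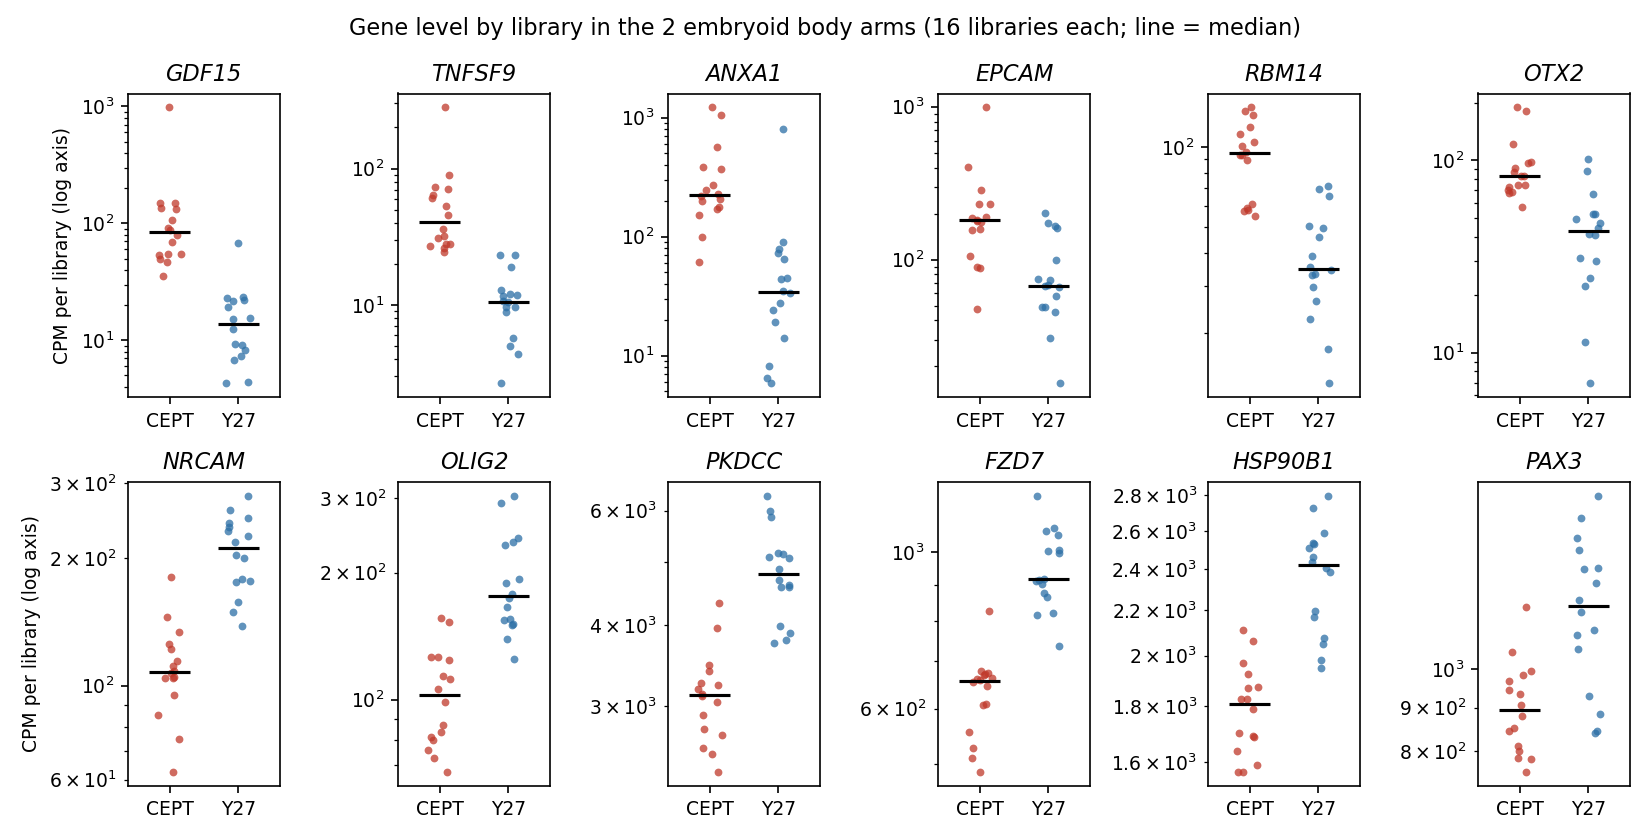
Level of 12 genes in each library, in CPM on a log axis, with the CEPT arm in red, the Y27 arm in blue, 16 points per arm and a black line at the median. All CEPT points of TNFSF9 lie above all Y27 points, while the ranges of the other genes overlap.

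GDF15, a secreted stress cytokine on chromosome 19 (18386158 to 18389176, GRCh38.p14), ranged from 35.3 to 984 CPM in the CEPT arm (median 84.2) and from 4.28 to 67.3 CPM in the Y27 arm (median 13.9). All 16 CEPT libraries were above the Y27 median, and 1 Y27 library, replicate 11, reached into the CEPT range. Its log2 fold change was 3.07 ± 0.45 (SE; edgeR, adjusted p 4.02e-06), a fold of 8.4. Without CEPT replicate 7, the highest library, the log2 fold change was 2.35. Scaled with the control cultures, GDF15 averaged 131 ± 201 CPM in the CEPT arm and 15.5 ± 13.6 in the Y27 arm (SD, n = 16 each), and 70.8 ± 8.39 in undifferentiated cells and 508 ± 45.8 in mesoderm (SD, n = 4 each), the Y27 arm having the lowest mean of these 4. TNFSF9, the ligand of 4-1BB, a receptor on T cells (chromosome 19, 6531026 to 6535924), ranged from 24.3 to 281 CPM in the CEPT arm (median 40.9) and from 2.67 to 23.4 CPM in the Y27 arm (median 10.6). The lowest CEPT library was just above the highest Y27 library. The log2 fold change of TNFSF9 was 2.46 ± 0.34 (SE; edgeR, adjusted p 1.43e-06), and between 2.06 and 2.58 with any 1 library left out.

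TM4SF1, a membrane protein of the tetraspanin-like family (chromosome 3, 149369022 to 149377649), ranged from 0 to 53.7 CPM in the CEPT arm (median 23.7) and from 0 to 8.34 CPM in the Y27 arm (median 3.77). It was above the Y27 median in 14 of 16 CEPT libraries, with a log2 fold change of 2.67 ± 0.57 (SE; edgeR, adjusted p 0.000685). ANXA1, annexin A1, a membrane-binding protein common in epithelia and mesenchyme, ranged from 60.9 to 1219 CPM in the CEPT arm (median 224) and from 5.85 to 795 CPM in the Y27 arm (median 34.3). The Y27 maximum belonged to replicate 15 alone, and the next Y27 library was at 89.9 CPM. The log2 fold change of ANXA1 was 2.16 with all libraries and 3.20 without Y27 replicate 15. EPCAM, the epithelial adhesion molecule that pluripotent cells also carry, ranged from 47.6 to 991 CPM in the CEPT arm (median 181) and from 15.5 to 203 CPM in the Y27 arm (median 67.5). The CEPT median lay inside the Y27 range, and the log2 fold change was 1.42 ± 0.34 (SE; edgeR, adjusted p 0.0022). GRHL3, a transcription factor of surface ectoderm, had a median of 15.6 CPM against 6.88 and a log2 fold change of 1.15 (adjusted p 0.0367, edgeR). It rested on a single probe pair and was no longer called when any of 10 libraries was left out. EPCAM and GRHL3 made up 2 of the 3 tested genes of the non-neural ectoderm and trophoblast list (66.7% called, against 29.3% of all tested genes).

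OCLN, occludin of the tight junction, had a log2 fold change of 0.35 (adjusted p 0.0202, edgeR), with 1 of its 3 probe pairs at -0.12. KRT18, a keratin of simple epithelia, was at a median of 137 CPM in the CEPT arm and 73.1 in the Y27 arm and was not called (log2 fold change 0.38, adjusted p 0.484, edgeR). MACC1, known from epithelial tumours, had a log2 fold change of 2.70 ± 0.68 (SE; edgeR, adjusted p 0.00282) at medians of 7.76 and 1.01 CPM, and no single probe pair of it passed the filter on its own. INPP5D, the lipid phosphatase SHIP1 of blood cells, went from a median of 3.55 to 17.0 CPM (log2 fold change 2.27 ± 0.48, SE; edgeR, adjusted p 0.000677). NPPB, the natriuretic peptide BNP, had a log2 fold change of 2.24, which was 1.62 without CEPT replicate 15. In the control cultures NPPB stood at 15913 ± 2109 CPM in endoderm (SD, n = 4), against 11.5 ± 16.3 in the CEPT arm on the same scale (SD, n = 16).

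IFITM1, an antiviral membrane protein induced by interferon, and TRIM22, another interferon-induced gene, were both higher. IFITM1 ranged from 938 to 20228 CPM in the CEPT arm (median 4594) and from 406 to 7807 in the Y27 arm (median 1904). Its log2 fold change of 1.14 (adjusted p 0.019, edgeR) became 0.86 (adjusted p 0.06) without CEPT replicate 7. TRIM22 ranged from 16.5 to 52.5 CPM (median 32.3) and from 0.408 to 33.7 CPM (median 13.7), with a log2 fold change of 1.17 ± 0.30 (SE; edgeR, adjusted p 0.00296). Of 5 tested genes in the interferon and antigen presentation list, 1 was higher and 1 lower (40% called, against 29.3% of all tested genes). CD74, the invariant chain of MHC class II, outside that list, was lower (log2 fold change -0.43, adjusted p 0.000905, edgeR).

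CEPT replicate 7 held the highest CEPT value for 13 of the 54 higher genes, among them GDF15, TNFSF9, ANXA1, EPCAM, IFITM1, DDIT3 and CDKN1A. Y27 replicate 15 stood apart for the mesoderm genes HAND1 and MSX1. HAND1, a factor of heart and extraembryonic mesoderm, was at 4077 CPM there and at a median of 16 in the Y27 arm and 17.4 in the CEPT arm. HAND1 was not called (log2 fold change -2.30, adjusted p 0.0977, edgeR), and its log2 fold change was 0.76 without that library. MSX1 was at 786 CPM there and at a median of 52.8 in the Y27 arm. With CEPT replicates 7 and 13 and Y27 replicate 15 left out together, 110 genes were called, 51 higher and 59 lower.

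CDKN1A, BBC3, FAS, CHEK2 and GADD45A, genes of DNA damage, arrest and cell death, were called higher. None of these 5 was called under totals alone, and BBC3, CHEK2 and GADD45A were not called under reference genes. CDKN1A, the cell cycle inhibitor p21, ranged from 107 to 375 CPM in the CEPT arm (median 175) and from 54.8 to 157 in the Y27 arm (median 108), and 15 of 16 CEPT libraries were above the Y27 median. Its log2 fold change was 0.75 ± 0.16 (SE; edgeR, adjusted p 0.000699). The pro-death genes BBC3 (PUMA) and FAS, the death receptor, had log2 fold changes of 0.63 ± 0.18 and 0.59 ± 0.14 (SE; edgeR, adjusted p 0.00742 and 0.00196). CHEK2, a checkpoint kinase, was at 0.49 and GADD45A, a growth arrest gene, at 0.24.

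CHEK1, XPC, BTG2 and ATM fell. The replication checkpoint kinase CHEK1 had a log2 fold change of -0.64 ± 0.20 (SE; edgeR, adjusted p 0.014), at medians of 12.4 and 18.8 CPM on 1 probe pair. XPC, a DNA damage sensor, was at -0.46, ATM, the double-strand break kinase, at -0.27 and BTG2, an antiproliferative gene, at -0.35. BTG2 was not called when Y27 replicate 9 was left out (adjusted p 0.0548, edgeR). ATM was not called under median-ratio or upper-quartile factors, and BTG2 was not called under upper-quartile factors. ATM, BTG2 and CHEK1 were not called with the read share of the 10 highest genes as a covariate.

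The integrated stress response and unfolded protein list had 9 tested genes, of which 2 were higher and 3 lower (55.6% called, against 29.3% of all tested genes). The higher ones were GDF15 and DDIT3, the transcription factor CHOP. DDIT3 ranged from 253 to 1128 CPM in the CEPT arm (median 649) and from 152 to 639 CPM in the Y27 arm (median 325). The CEPT median lay above the highest Y27 library, and the log2 fold change was 0.88 ± 0.22 (SE; edgeR, adjusted p 0.00237). ATF4, the factor upstream of both, was at 3681 and 3853 CPM and was not called (log2 fold change -0.11 ± 0.08, SE; edgeR, adjusted p 0.379). The 3 lower members, HSP90B1, ATF6 and CALR, belong to the protein folding machinery of the endoplasmic reticulum and its sensor. The list had 1 lower member under upper-quartile factors and 6 under totals alone.

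Most called chaperones were lower. Of 6 tested heat shock genes, 4 were lower and 1 higher (83.3% called, against 29.3% of all tested genes). The median log2 fold change of the list was -0.28. The lower members numbered 3 to 5 over the 5 scalings. HSP90B1, the HSP90 of the endoplasmic reticulum, ranged from 1567 to 2113 CPM in the CEPT arm (median 1808) and from 1948 to 2798 CPM in the Y27 arm (median 2421). All 16 CEPT libraries were below the Y27 median, and the log2 fold change was -0.40 ± 0.06 (SE; edgeR, adjusted p 3.96e-06). HSPA8, the constitutive HSP70, had medians of 6844 and 8304 CPM and a log2 fold change of -0.36 ± 0.08 (SE; edgeR, adjusted p 0.000677). HSP90AB1, the constitutive cytosolic HSP90, had medians of 10829 and 13251 CPM and a log2 fold change of -0.31 ± 0.05 (SE; edgeR, adjusted p 2.53e-05). HSPA4, a nucleotide exchange factor for HSP70, was at -0.29 and CCT6A, a subunit of the chaperonin TRiC, at -0.42 on the log2 scale. For HSPA8, HSP90AB1, HSPA4, HSP90B1 and CCT6A all 16 CEPT libraries were below the Y27 median, and all 5 were called lower in each of the 5 scalings tried. HSP90AA1, the inducible cytosolic HSP90, had a log2 fold change of -0.26 (adjusted p 0.0298, edgeR) and was no longer called when CEPT replicate 2 or Y27 replicate 4, 11 or 16 was left out.

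HSPE1, the small mitochondrial co-chaperonin, was higher. It ranged from 11727 to 25961 CPM in the CEPT arm (median 16137) and from 6983 to 17199 in the Y27 arm (median 9726), with a log2 fold change of 0.68 ± 0.15 (SE; edgeR, adjusted p 0.000699). Its partner HSPD1 was not called (log2 fold change -0.06, adjusted p 0.507, edgeR). The tested probe pairs lay at positions 590 to 860 of the transcript for HSPE1 and 969 to 2223 for HSPD1. Among 24 tested genes with transcripts under 1000 nt, 16 were higher and 0 lower, against 14.1% and 15.2% of all tested genes. The part of transcript length in the HSPE1 increase was not tested. CALR, the lectin chaperone calreticulin, was lower by a small amount (log2 fold change -0.19 ± 0.06, SE; edgeR, adjusted p 0.0105). HSPA5, the main HSP70 of the endoplasmic reticulum (BiP), was not called, at -0.18 ± 0.11 (SE; edgeR, adjusted p 0.266).

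Promoters of HSP90B1, CALR and HSPA8, which were called lower, and of HSPA5, which was not, are shown because these genes are textbook targets of the unfolded protein and heat shock responses. The windows are RefSeq sequence on GRCh38.p14, from 250 bases before to 50 bases after the transcript start, on the gene's strand. The first 3 carry the ER stress element in capitals, CCAAT and CCACG separated by 9 bases, searched on both strands. HSP90B1 (chr12:103930160-103930459, plus strand) held 2 matches, CALR (chr19:12938359-12938658, plus strand) held 1, and HSPA5 (chr9:125241294-125241593, minus strand) held 1. This motif occurs in 0.0769% of 35116 promoter windows. In the HSPA8 window (chr11:123062087-123062386, minus strand) capitals mark the heat shock element motifs TTCNNGAA or GAANNTTC, of which it held 4, some overlapping. Either form occurs in 13.5% of windows, and the HSPA4 window held 0.
HSP90B1: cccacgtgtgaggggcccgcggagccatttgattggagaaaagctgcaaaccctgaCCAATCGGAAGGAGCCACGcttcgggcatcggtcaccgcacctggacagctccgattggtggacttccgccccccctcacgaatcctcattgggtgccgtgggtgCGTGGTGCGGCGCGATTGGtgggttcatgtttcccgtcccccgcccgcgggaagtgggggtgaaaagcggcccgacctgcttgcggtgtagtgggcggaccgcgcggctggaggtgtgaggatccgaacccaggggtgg
CALR: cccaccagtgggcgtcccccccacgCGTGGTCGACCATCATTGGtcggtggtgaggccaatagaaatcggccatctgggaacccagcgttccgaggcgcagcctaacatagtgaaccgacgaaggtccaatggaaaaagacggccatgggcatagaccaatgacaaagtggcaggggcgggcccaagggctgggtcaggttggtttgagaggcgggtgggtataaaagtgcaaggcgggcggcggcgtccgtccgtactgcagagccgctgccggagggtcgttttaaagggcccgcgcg
HSPA5: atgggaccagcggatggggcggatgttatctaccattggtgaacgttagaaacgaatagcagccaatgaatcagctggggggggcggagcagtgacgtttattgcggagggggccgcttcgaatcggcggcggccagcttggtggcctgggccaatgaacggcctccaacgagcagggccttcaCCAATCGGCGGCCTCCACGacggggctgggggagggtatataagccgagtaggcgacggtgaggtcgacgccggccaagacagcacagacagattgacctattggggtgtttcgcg
HSPA8: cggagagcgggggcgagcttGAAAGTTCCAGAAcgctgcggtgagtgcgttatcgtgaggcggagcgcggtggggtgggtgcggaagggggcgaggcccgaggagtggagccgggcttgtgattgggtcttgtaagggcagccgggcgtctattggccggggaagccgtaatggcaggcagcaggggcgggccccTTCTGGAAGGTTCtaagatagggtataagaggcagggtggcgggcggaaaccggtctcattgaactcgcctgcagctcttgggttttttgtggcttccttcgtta
Among the genes with the ER stress element shown, HSP90B1 was called lower in all 5 scalings. CALR had a log2 fold change of -0.19 ± 0.06 (SE) and was not called under median-ratio or upper-quartile factors. HSPA5 had a log2 fold change of -0.18 ± 0.11 (SE) and was called lower under totals alone and under reference genes. The difference between CALR and HSPA5 was not tested.

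Of 17 tested genes of the forebrain and neural progenitor list, 3 were higher and 0 lower in the CEPT arm. That is 17.6% called, against 29.3% of all tested genes, and the median log2 fold change of the list was 0.20. OTX2, the homeobox factor of forebrain and midbrain (chromosome 14, 56799905 to 56810479), ranged from 57.6 to 189 CPM in the CEPT arm (median 83.1) and from 6.93 to 102 CPM in the Y27 arm (median 42.9). Every CEPT library was above the Y27 median, although the ranges overlapped, and the log2 fold change was 1.08 ± 0.24 (SE; edgeR, adjusted p 0.00114). SIX3, a factor of the anterior forebrain and eye field, and SOX11, a factor of immature neurons, had log2 fold changes of 0.82 ± 0.27 and 0.67 ± 0.16 (SE; edgeR, adjusted p 0.0197 and 0.00182). PAX6, a factor of dorsal forebrain progenitors, was at medians of 19.2 and 10.1 CPM and was not called (log2 fold change 0.84 ± 0.44, SE; edgeR, adjusted p 0.161). Scaled with the control cultures, SIX3 averaged 9.73 ± 4.26 CPM in the CEPT arm and 5.43 ± 2.9 in the Y27 arm (SD, n = 16 each). In undifferentiated cells SIX3 was at 51.7 ± 3.75 and in ectoderm at 328 ± 9.65 (SD, n = 4 each). OTX2 was at 1395 ± 63.4 in endoderm and 475 ± 38.9 in ectoderm (SD, n = 4 each), against 88.5 ± 34.8 in the CEPT arm (SD, n = 16). OTX2 was called in all 5 scalings, SIX3 and SOX11 in 3. Under totals alone and under reference genes the list had 1 higher and 3 lower members. SOX2, a factor of neural and pluripotent progenitors, had a log2 fold change of -0.26 (adjusted p 0.0412, edgeR), and the call was lost when any of 16 libraries was left out.

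Of 9 tested neurotransmitter and neuropeptide genes, 2 were higher and 0 lower (22.2% called, against 29.3% of all tested genes). SLC17A6, the vesicular glutamate transporter VGLUT2, ranged from 18.6 to 119 CPM in the CEPT arm (median 59.7) and from 2.31 to 68.1 in the Y27 arm (median 28.8). It was above the Y27 median in 15 of 16 CEPT libraries (log2 fold change 0.98 ± 0.24, SE; edgeR, adjusted p 0.00248). SST had a log2 fold change of 0.52 ± 0.15 (SE; edgeR, adjusted p 0.0104). Both were called in 3 of the 5 scalings, not under totals alone or reference genes, where the list had 0 higher and 3 lower members.

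Neuronal differentiation and neurite genes had 0 higher and 4 lower of 19 tested (21.1% called, against 29.3% of all tested genes). Their median log2 fold change was -0.19. The lower members numbered 2 under upper-quartile factors and 11 under totals alone. NRCAM, an adhesion molecule of growing axons (chromosome 7, 108147649 to 108456720), ranged from 62.6 to 180 CPM in the CEPT arm (median 108) and from 138 to 280 CPM in the Y27 arm (median 210). All 16 CEPT libraries were below the Y27 median, and the ranges overlapped between 138 and 180 CPM. The log2 fold change of NRCAM was -0.90 ± 0.12 (SE; edgeR, adjusted p 9.08e-07). NEUROD1, a factor that drives neuronal differentiation, had medians of 1935 and 2732 CPM and a log2 fold change of -0.39 ± 0.12 (SE; edgeR, adjusted p 0.0101). DPYSL3, a growth cone protein, was at -0.34 and SYP, synaptophysin of synaptic vesicles, at -0.36 on the log2 scale. OLIG2, a factor of motor neuron and oligodendrocyte progenitors (chromosome 21, 33025935 to 33029185), ranged from 67.4 to 156 CPM in the CEPT arm (median 102) and from 125 to 304 CPM in the Y27 arm (median 176). Its log2 fold change was -0.89 ± 0.14 (SE; edgeR, adjusted p 6.15e-06), and all 3 of its probe pairs were called. EML1, a microtubule protein of dividing neural progenitors, had a log2 fold change of -0.63 ± 0.17 (SE; edgeR, adjusted p 0.00578).

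Called neural crest regulators were lower. Of 8 tested genes of the neural crest and placode list, 5 were lower and 0 higher (62.5% called, against 29.3% of all tested genes). The median log2 fold change of the list was -0.30. PAX3, a factor of the neural plate border and crest (chromosome 2, 222199887 to 222298998), ranged from 756 to 1182 CPM in the CEPT arm (median 893) and from 840 to 1601 CPM in the Y27 arm (median 1187). No CEPT library exceeded the Y27 median, and the log2 fold change was -0.39 ± 0.09 (SE; edgeR, adjusted p 0.000905). SOX10, which marks migrating crest and the Schwann and oligodendrocyte lineages, ranged from 862 to 1761 CPM (median 1355) and from 1148 to 2367 CPM (median 1651), with a log2 fold change of -0.41 ± 0.11 (SE; edgeR, adjusted p 0.00419). SNAI2, which drives delamination of crest cells, was at -0.30 ± 0.07 (SE; edgeR, adjusted p 0.00237), and FOXD3, an early crest factor, was at -0.29 ± 0.09 (SE; edgeR, adjusted p 0.00971). NGFR, the p75 receptor used to sort crest cells, was also at -0.30, but its call was lost when any of 19 libraries was left out. The other members, MSX1, ETS1 and CDH6, were not called, with log2 fold changes of -0.66, -0.27 and 0.12.

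SOX10 and PAX3 were called in all 5 scalings, SNAI2 and FOXD3 in 4. The crest list had 2 lower members under upper-quartile factors and 2 with the read share of the 10 highest genes as a covariate. S100B, a calcium-binding protein of astrocytes and Schwann cells, ranged from 338 to 1174 CPM in the CEPT arm (median 634) and from 210 to 570 in the Y27 arm (median 367), with a log2 fold change of 0.79 ± 0.17 (SE; edgeR, adjusted p 0.000895). SLC1A2, the astrocyte glutamate transporter, had a log2 fold change of 0.56 (adjusted p 0.0266, edgeR), and was not called without CEPT replicate 8 (adjusted p 0.0588, edgeR).

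**Figure D2:**
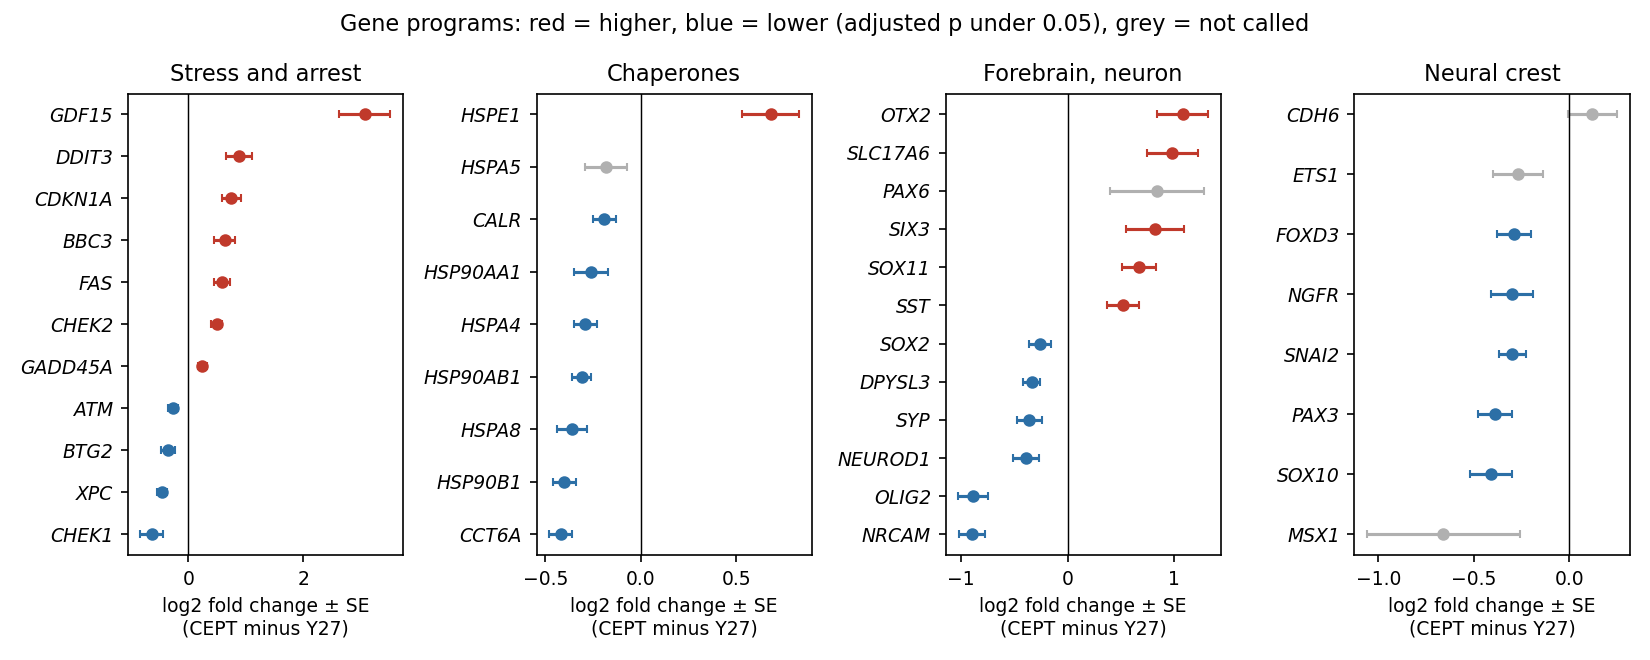
Log2 fold change (CEPT minus Y27, error bars SE) of genes in 4 programs, with red for called higher, blue for called lower and grey for not called. Among the chaperones HSPE1 stands alone to the right of 0, the crest genes except CDH6 lie to the left of 0, and the stress and neural panels hold genes on both sides.

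FZD7, a Wnt receptor of pluripotent and progenitor cells (chromosome 2, 202033855 to 202038441), ranged from 488 to 825 CPM in the CEPT arm (median 656) and from 737 to 1203 CPM in the Y27 arm (median 916). All CEPT libraries were below the Y27 median, with a log2 fold change of -0.59 ± 0.07 (SE; edgeR, adjusted p 2.93e-07). FZD5, another Wnt receptor, known from anterior neural and eye field tissue, went from a median of 28.0 to 53.4 CPM (log2 fold change 0.88 ± 0.21, SE; edgeR, adjusted p 0.00161). FZD5 was not called under totals alone. These were the called members among 5 tested Wnt pathway genes (40% called, against 29.3% of all tested genes). PKDCC, a secreted tyrosine kinase (chromosome 2, 42048021 to 42058517), ranged from 2375 to 4318 CPM in the CEPT arm (median 3117) and from 3747 to 6324 CPM in the Y27 arm (median 4787). It had a log2 fold change of -0.63 ± 0.08 (SE; edgeR, adjusted p 9.08e-07). SPARC, a matrix glycoprotein, was at -0.58 ± 0.17 (SE; edgeR, adjusted p 0.0113), with its highest value, 874 CPM, in Y27 replicate 15. Among 3 tested Notch genes 66.7% were called, against 29.3% of all tested genes. The ligand DLL1 was lower (-0.31, not called without Y27 replicate 9, adjusted p 0.0512, edgeR). The target HES4 was higher (0.33, not called when any of 15 libraries was left out). Of 7 tested genes of the BMP, TGF-beta and Nodal list, 0 were called in edgeR, DESeq2 or limma voom. In edgeR 29.3% of all tested genes were called, and 1 gene of this list had an unadjusted p under 0.05.

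Of 11 tested genes of the oxidative stress and iron list, 4 were higher and 3 lower (63.6% called, against 29.3% of all tested genes). With CEPT replicates 7 and 13 and Y27 replicate 15 left out, 2 were higher. The list had 1 higher and 6 lower under totals alone and 1 and 5 under reference genes. TXN, thioredoxin, ranged from 8016 to 16109 CPM in the CEPT arm (median 11055) and from 4948 to 9257 CPM in the Y27 arm (median 6300), with a log2 fold change of 0.84 ± 0.11 (SE; edgeR, adjusted p 9.08e-07). TXNRD1, the reductase that recycles thioredoxin, was lower, with a log2 fold change of -0.32 ± 0.08 (SE; edgeR, adjusted p 0.00194), as was GCLM, a subunit of the first enzyme of glutathione synthesis (-0.40 ± 0.12, SE; edgeR, adjusted p 0.0107). The metallothioneins MT1F, MT1X and MT2A, small metal-binding proteins, had log2 fold changes of 0.91, 0.74 and 0.52, each from 1 probe pair. None of these 3 was called under totals alone or reference gene scaling. MT1F lost its call without CEPT replicate 7 or Y27 replicate 9, and MT1X when any of 20 libraries was left out. FTH1, the ferritin heavy chain, had a log2 fold change of -0.19 and lost its call when any of 16 libraries was left out.

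ODC1, the first enzyme of polyamine synthesis, was the only tested gene of the polyamine list. Any link to the polyamines in CEPT was not tested. ODC1 ranged from 261 to 534 CPM in the CEPT arm (median 371) and from 371 to 647 CPM in the Y27 arm (median 510). Its log2 fold change was -0.48 ± 0.10 (SE; edgeR, adjusted p 0.000536), with 14 of 16 CEPT libraries below the Y27 median. SHMT2, of mitochondrial serine and folate metabolism, and SEPHS1, of the selenophosphate synthetase family, had log2 fold changes of -0.28 and -0.35, with all 3 probe pairs called for each. CKB, brain creatine kinase, had a log2 fold change of -0.52 ± 0.14 (SE; edgeR, adjusted p 0.00388). TOP2A, the topoisomerase of dividing cells, had medians of 2548 and 3234 CPM and a log2 fold change of -0.37 ± 0.06 (SE; edgeR, adjusted p 4.03e-05). MYBL2, a cell cycle transcription factor, was at -0.34 on that scale, and CTCF, the chromatin insulator protein, at -0.49 ± 0.07 (SE; edgeR, adjusted p 2.01e-06). The called members among 4 tested cell cycle genes were TOP2A and MYBL2, lower, and CDKN1A, higher (75% called, against 29.3% of all tested genes).

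RBM14, an RNA-binding coactivator found in paraspeckles, stood out from the control cultures. It ranged from 54.8 to 141 CPM in the CEPT arm (median 94.6) and from 12.9 to 71.4 CPM in the Y27 arm (median 34.8), and its log2 fold change was 1.26 ± 0.20 (SE; edgeR, adjusted p 1.57e-05). In the 4 control cultures its mean was between 0.87 and 4.72 CPM. Calls were spread over genes of each control culture. Over all tested genes, 14.1% were higher and 15.2% lower, and differences between the classes below were not tested. Of 134 tested genes with their highest control level in ectoderm, 19 were higher and 21 lower, and of 88 with it in undifferentiated cells, 12 were higher and 13 lower. Of 64 highest in mesoderm, 9 were higher and 13 lower, and of 96 highest in endoderm, 14 were higher and 11 lower. The pluripotency list had 1 higher and 1 lower of 16 tested, LIN28B and SOX2 (12.5% called, against 29.3% of all tested genes). The LIN28B call (log2 fold change 0.15) was lost when any of 22 libraries was left out. Of 8 tested endoderm genes, 1 was higher (12.5% called, against 29.3% of all tested genes). It was SST, which that list holds as a marker of the pancreas. SOX17, the definitive endoderm factor, was not called (medians 8.86 and 2.21 CPM, adjusted p 0.214, edgeR). Of 10 tested mesoderm genes, NPPB was higher and PDGFRB and SNAI2 lower (30% called, against 29.3% of all tested genes). PDGFRB lost its call when any of 24 libraries was left out.

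A block of short, abundant transcripts was higher in the CEPT arm. TMSB15A, an actin-binding thymosin, ranged from 36189 to 156358 CPM in the CEPT arm (median 51725) and from 16668 to 58750 CPM in the Y27 arm (median 26827), with a log2 fold change of 1.11 ± 0.22 (SE; edgeR, adjusted p 0.000285). USMG5, a small subunit of ATP synthase, was at 1.02 ± 0.17 (SE; edgeR, adjusted p 1.68e-05) and TOMM7, of the mitochondrial import pore, at 0.91 ± 0.22 (SE; edgeR, adjusted p 0.0022). The histone variant gene H2AFZ was at 0.77, the splicing subunit SNRPF at 0.76, and the ribosomal protein genes RPL13A and RPL5 at 0.73 and 0.71 on the log2 scale. RPS19, also ribosomal, took 11.6% of reads in both arms and was not called (log2 fold change 0.32, adjusted p 0.188, edgeR). Of 10 tested ribosome and translation genes 2 were higher and 0 lower (20% called, against 29.3% of all tested genes), with 2 higher and 4 lower under totals alone and under reference genes.

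Read shares and transcript lengths are given beside these increases. RPL5, RPL13A, TMSB15A and H2AFZ are themselves among the most abundant genes, so the share of reads on the 10 highest genes holds part of the same difference and is not separate evidence. The 10 highest genes took 59.9% ± 5.24 of reads in the CEPT arm (51.8 to 68.6) and 53.6% ± 5.74 in the Y27 arm (46.0 to 61.8; SD, n = 16 each), a difference of 6.34 percentage points (two-sided permutation test, p 0.00264). Of 24 tested genes with transcripts under 1000 nt, 16 were higher and 0 lower, against 14.1% and 15.2% of all tested genes. The median log2 fold change of the 24 was 0.72, or 0.39 under totals alone. Those 24 genes took 20.0% ± 2.66 of reads in the CEPT arm and 13.6% ± 2.32 in the Y27 arm (SD, n = 16 each). The other length classes had medians of -0.00 from 1000 to 2000 nt, -0.10 from 2000 to 4000 nt and -0.00 above. The median transcript length was 1747 nt for higher genes, 3430 nt for lower genes and 2945 nt over the 376 tested genes with a length. RNA quality values were not analysed here, and the part of length or composition in these increases was not tested. That part was also not tested for HSPE1, TXN, SST, MT1F, MT1X and MT2A. All tested probe pairs of these genes lay below position 1000 of the transcript. With the share of the 10 highest genes added to the model, 79 genes were called, 42 higher and 37 lower, and 64 of the 112 genes kept their call. ANXA1, EPCAM, DDIT3, CHEK1, SOX10, S100B, SPARC, SIX3 and RPL13A were among those no longer called.

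**Figure D3:**
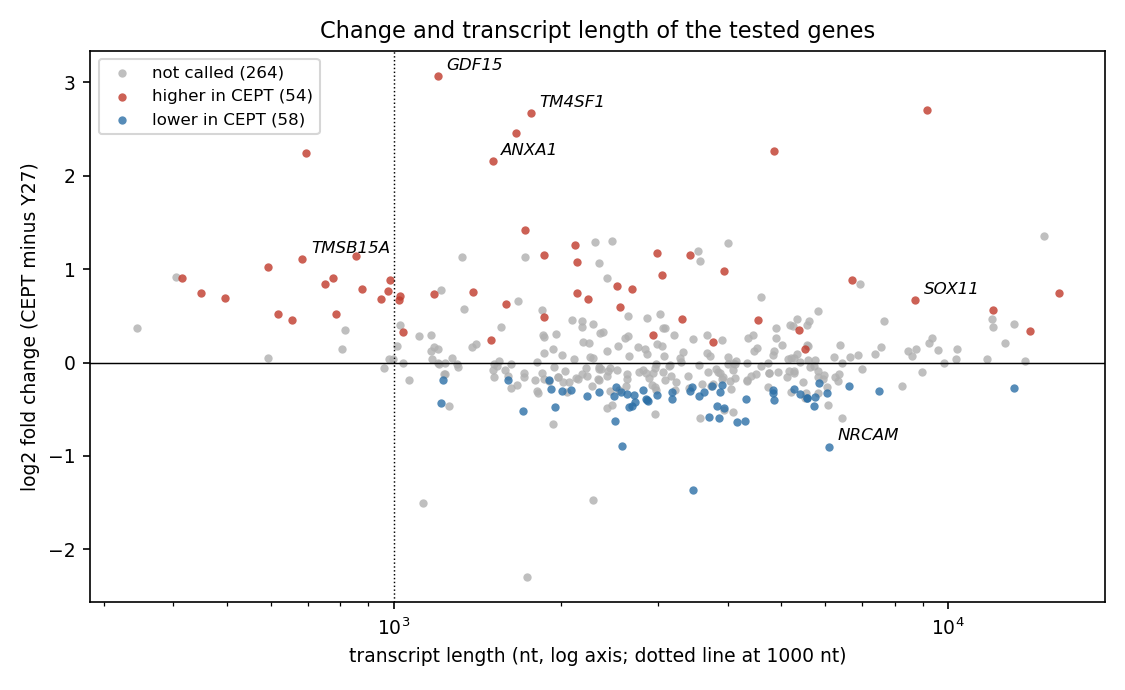
Log2 fold change (CEPT minus Y27) against transcript length in nt on a log axis for the tested genes with a length, with called genes in red (54 higher) and blue (58 lower). Left of the dotted line at 1000 nt there are 16 red points and no blue ones.

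Among the alternatives tried, scaling moved the balance of the calls most. Scaling on library totals alone gave 26 higher and 139 lower genes and shifted the median log2 fold change over all tested genes by -0.30. Scaling on reference genes (GAPDH, ACTB, RPL13A, PGK1 and EEF1A1), of which RPL13A was itself called higher, gave 30 and 126. Upper-quartile factors gave 61 higher and 28 lower, and DESeq2's median-ratio factors gave 58 and 46. A set of 54 genes was called in the same direction in all 5 scalings (14.1% of the tested genes), 26 higher (6.81%) and 28 lower (7.33%). None of the 112 genes called with TMM scaling was called in the opposite direction under another scaling. The other tested genes were not checked for this. GADD45A, SDC2 and LIN28B changed sign, without a call, under totals alone and reference genes. Among the genes named here, GDF15, TM4SF1, TNFSF9, INPP5D, ANXA1, EPCAM, RBM14, TRIM22 and OTX2 on the one side and NRCAM, OLIG2, PKDCC, FZD7, CTCF, ODC1, HSP90B1, CCT6A and TOP2A on the other kept their calls in all 5.

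**Figure D4:**
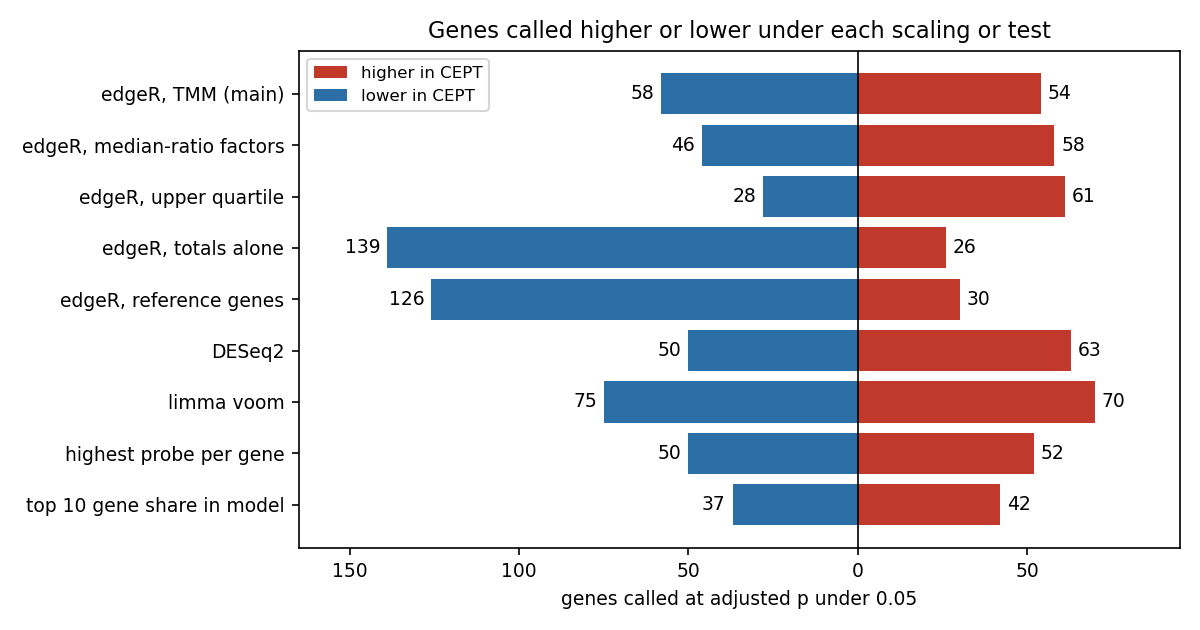
Number of genes called at an adjusted p under 0.05 (x axis, lower genes in blue to the left, higher genes in red to the right) under 9 scalings, tests or models. The TMM split of 54 higher and 58 lower becomes 26 and 139 under totals alone and 61 and 28 under upper-quartile factors.

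Probe pairs of a gene mostly told the same direction. Of 311 genes with at least 2 tested probe pairs, 217 (69.8%) had all of them on the same side of 0. Among called genes this held for 97 of 101, the exceptions being OCLN, LIN28B, FOXD3 and ATF6. Among genes not called it held for 120 of 210. In the fit of single probe pairs, 205 of 867 were called (23.6%), no gene had pairs called both ways, and 62 genes had 2 or more pairs called. The log2 fold changes of the 2 pairs with the most reads had a median absolute difference of 0.15 and a Pearson r of 0.85 across genes, which are not independent replicates. Some sums hid unequal pairs. TXNRD1 pairs ran from -1.19 to -0.30, GCLM pairs from -0.93 to -0.23 and DDIT3 pairs from 0.13 to 0.91 on the log2 scale. By contrast, the pairs of NRCAM lay between -0.90 and -0.86 and those of RBM14 between 1.21 and 1.24.

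**Figure D5:**
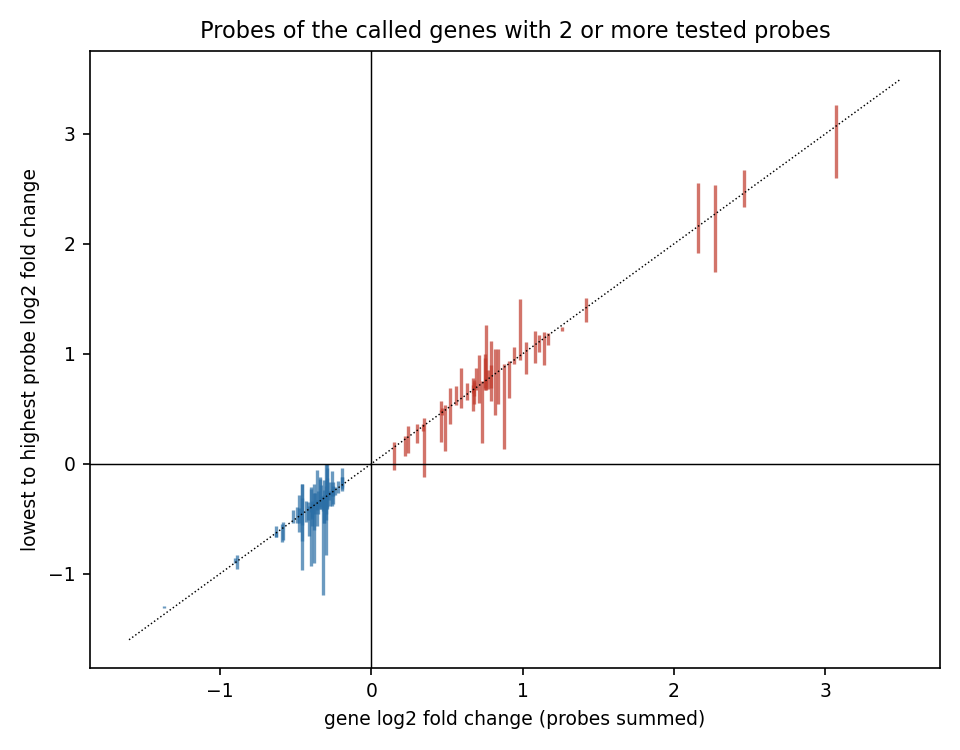
Range of probe log2 fold changes (y axis, lowest to highest tested probe pair) against the log2 fold change of the summed gene (x axis) for called genes with at least 2 tested probe pairs, red for higher and blue for lower, with a dotted line of equality. The bars follow the line, and 4 of the 101 genes have pairs on both sides of 0.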

How the data were processed

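The authors made RASL-Seq libraries from captured polyadenylated RNA and, per the labels' protocols, sequenced them on a NextSeq 550. The deposited tables hold unnormalized read counts for each probe pair, and the aligner, its settings and the probe sequences are not given in the sources used here. The submitters' processing notes name hg38 and DESeq2 without a role. A merged table repeats the 48 sample tables, and 16 further columns without a sample label were not used. Reads of a gene's probe pairs were summed. Pairs of libraries of an arm differed beyond counting noise (chi-square of at least 52 per degree of freedom). The 32 embryoid body libraries were fitted with edgeR 4.0.16 in R 4.3.3 (filterByExpr, TMM, robust two-sided quasi-likelihood test). P-values were adjusted over all tested genes by Benjamini-Hochberg, with a threshold of 0.05. Each standard error is the absolute log2 fold change over the root of its F statistic. Read shares were compared by a permutation test with 100000 resamples.

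Genes were named if they were among the 12 largest changes in each direction and averaged 50 or more reads in the higher arm, or belonged to a gene list; others were chosen after their values were seen. The comparison, 31 gene lists and the genes were chosen with earlier results of these data known, and 8 further lists after the panel's gene names were read. Some decreases, and lists that depend on them, are not reported here. Transcript lengths were those of GENCODE, and gene positions and promoters came from RefSeq (GRCh38.p14), with positions for all 452 genes. Alternatives were DESeq2 1.42.0, limma 3.58.1 (voom), other scalings and filters, covariates, a replicate block and left-out libraries. On simulated counts for this comparison, with 191 of 372 tested genes changed, 38.1% of changes of 0.3 on the log2 scale, 74.6% of those of 0.6 and 87.7% of those of 1 were called, and 1.54% of calls were false. A simulation without changes gave 0 calls among 374 genes. Both simulations drew each gene independently, with the fitted spread and TMM library sizes, and increases and decreases were drawn in equal number. They held no difference in composition and did not vary the scaling. They therefore cannot give the share of false calls in the real data.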

Additional observations from a re-analysis of the deposited data

Results flagged for a closer look

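Among the 24 genes chosen by the naming rule, each of the 4 control cultures was searched for a library far from the other 3 in log2 CPM. Of the 96 combinations, 5 had such a library (5.21%), and chance flags about 1 in 20. TRIM22 was low in endoderm replicate 2, at 0.42 against 1.29 to 1.34 in the others. Its mean in endoderm was only 1.65 ± 0.578 CPM (SD, n = 4), where a few reads move the value. GRHL3 was low in ectoderm replicate 3, at 7.45 against 7.93 to 8.03. CKB was high in ectoderm replicate 3, at 6.90 against 5.99 to 6.05. FZD7 was high in mesoderm replicate 3, at 10.12 against 9.92 to 9.94. PKDCC was low in endoderm replicate 3, at 9.21 against 9.37 to 9.39.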

How the results depend on the processing

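With any 1 library left out, 99 to 118 genes were called, 47 to 57 higher and 49 to 62 lower, and 89 of the 112 calls were kept every time. The number of higher genes was 26 under totals alone and 30 under reference gene scaling. The number of lower genes was 139 under totals alone, 126 under reference gene scaling, 28 under upper-quartile factors and 37 with the share of the 10 highest genes as a covariate, an alternative chosen after seeing the data. Probe pairs called numbered 339 under totals alone. GADD45A had log2 fold changes of -0.07 and -0.01, and LIN28B of -0.16 and -0.12, under totals alone and reference genes. The causes were not tested. DESeq2 called 63 higher and 50 lower genes, and the fit of all 48 libraries 70 and 56. The share of reads on the 5 and the 20 highest genes differed by 7.92 and 5.96 percentage points, and that on the 10 highest by 6.46 without CEPT replicates 7 and 13 and Y27 replicate 15 (permutation p 0.0042, 0.00126 and 0.00594).

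Libraries of the same number in the arms had deviations correlated at -0.46 to 0.26 (median -0.05, 3 of 16 pairs above 0.1), and no CEPT library correlated best with its own number, so the numbers were not taken as pairs. A replicate block called 90 genes, 43 higher and 47 lower. A log2 change of 0.3 was called in 38.1% of simulated cases, so changes of that size can be missed.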
